A study of Saccharomyces cerevisiae with 40 samples.

Results

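The genes described here encode the machinery with which budding yeast destroys faulty mRNAs and frees the ribosomes stalled on them. There are 10 of them: *NAM7* (YMR080C, also called *UPF1*), *NMD2* (YHR077C) and *UPF3* (YGR072W) of nonsense-mediated decay, *SKI2* (YLR398C), *SKI3* (YPR189W), *SKI8* (YGL213C) and *SKI7* (YOR076C) of the Ski pathway, and *DOM34* (YNL001W), *HBS1* (YKR084C) and *HEL2* (YDR266C) of ribosome rescue. They were chosen by function, as the rows with these identifiers, and all 10 were found among the 7127 genes listed for total and labeled RNA and the 6613 listed for ribosome profiling. The cells were W303 yeast grown in rich medium to log phase. The *def1Δ* strain lacks *DEF1*, a regulator of RNA polymerase II, the *dhh1Δ* strain lacks *DHH1*, a helicase that activates decapping, and WT carries neither deletion. Steady-state total RNA was measured in 2 *def1Δ* and 2 WT libraries. RATE-Seq, in which newly made RNA is tagged with 4-thiouracil (4tU) and purified, was measured in 9 *def1Δ* and 9 WT libraries at 6, 9, 12, 24 and 90 min of labeling, with 2 libraries per strain and time and a single 1 at 12 min. Ribosome profiling gave input RNA of *def1Δ*, *dhh1Δ* and WT cells in 3 libraries each, and ribosome-protected footprints in 3 barcoded columns each. The cells for profiling were treated with cycloheximide, which arrests ribosomes, and those for total RNA were not treated.

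In nonsense-mediated decay the helicase Upf1, encoded by *NAM7*, acts with Nmd2, the yeast Upf2, and Upf3 when a ribosome terminates too early, and the mRNA is then decapped and degraded. The Ski complex of the helicase Ski2, the scaffold Ski3 and the WD-repeat protein Ski8 feeds mRNA into the cytoplasmic exosome, and Ski7 joins the complex to the exosome. Dom34 and the GTPase Hbs1 split ribosomes that have stalled, and the ubiquitin ligase Hel2 marks ribosomes that have collided. The comparisons ask how the transcripts of these genes respond in cells without *DEF1*, in total RNA, in RNA made during a pulse of labeling and on ribosomes.

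Total RNA libraries held 9954503 to 14243535 counts and labeled RNA libraries 6026474 to 16318100. Those of input RNA held 14894073 to 45654269, and the footprint columns 1984692 to 8635312. Counts of the 10 genes ran from 43 to 1471 in a total RNA library and from 56 to 1283 in a footprint column. *DEF1* had 2 counts in each *def1Δ* total RNA library, against 997 and 1959 in the WT libraries. *DHH1* was at 71.2 to 88.1 CPM (counts scaled to a common library total) in *dhh1Δ* input RNA, against 211 to 316 CPM in WT, so reads on this gene remained in the libraries labelled *dhh1Δ*. The strain list of the study gives W303 as MAT alpha. Only the *dhh1Δ* input libraries had the markers of alpha cells, with *MF(ALPHA)1* at 1179 to 1485 CPM and the a-cell receptor gene *STE2* at 6.13 to 8.57 CPM. In *def1Δ* input RNA *MF(ALPHA)1* was at 0.546 to 0.71 CPM and *STE2* at 285 to 396 CPM. In WT input RNA *MF(ALPHA)1* was at 0.616 to 1.75 CPM and *STE2* at 456 to 709 CPM. In every comparison with *dhh1Δ* the deletion and the mating type therefore cannot be told apart.

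In the R64 assembly the nonsense decay genes were *NAM7* (chrXIII:426712-429627), *NMD2* (chrVIII:252374-255756) and *UPF3* (chrVII:634304-635467). The Ski genes were *SKI2* (chrXII:915156-919019), *SKI3* (chrXVI:912664-916962), *SKI8* (chrVII:90054-91247) and *SKI7* (chrXV:469377-471620), and the rescue genes *DOM34* (chrXIV:627456-628616), *HBS1* (chrXI:597055-598890) and *HEL2* (chrIV:1000104-1002023). No member overlaps another annotated gene, and *NMD2* is the only one with an intron. That intron has 113 bases, at chrVIII:255638-255750 on the minus strand, and follows the first 6 coding bases. Upstream windows of 200 bases, from 250 to 51 bases before the start codon, were read from the RefSeq sequence of R64. The gap to the upstream neighbour is 184 bases for *SKI3* and *SKI8*, 203 for *HBS1* and 240 for *UPF3*. The far end of these windows therefore lies within the neighbouring gene. The windows of 4 genes are shown because these transcripts carried the main differences: *SKI2* and *SKI3* were higher in *def1Δ* in each kind of library, *NAM7* was lower in total RNA, input RNA and footprints, and *DOM34* separated the strains only late in labeling. Capitals mark the PAC motif, GATGAG or its reverse complement CTCATC, which is common upstream of ribosome biogenesis genes.
SKI2 (chrXII:919070-919269, minus strand): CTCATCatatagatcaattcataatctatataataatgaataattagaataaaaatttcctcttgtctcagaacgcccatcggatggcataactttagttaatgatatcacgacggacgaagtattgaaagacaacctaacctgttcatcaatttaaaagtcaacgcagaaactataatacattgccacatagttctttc
SKI3 (chrXVI:912414-912613, plus strand): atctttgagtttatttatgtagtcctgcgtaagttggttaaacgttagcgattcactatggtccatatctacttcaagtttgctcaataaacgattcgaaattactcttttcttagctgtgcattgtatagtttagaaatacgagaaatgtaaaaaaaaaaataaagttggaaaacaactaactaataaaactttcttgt
NAM7 (chrXIII:429678-429877, minus strand): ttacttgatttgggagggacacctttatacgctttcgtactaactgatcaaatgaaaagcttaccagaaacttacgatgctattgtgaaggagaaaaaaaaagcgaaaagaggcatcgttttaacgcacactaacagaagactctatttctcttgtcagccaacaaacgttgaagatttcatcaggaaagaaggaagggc
DOM34 (chrXIV:627206-627405, plus strand): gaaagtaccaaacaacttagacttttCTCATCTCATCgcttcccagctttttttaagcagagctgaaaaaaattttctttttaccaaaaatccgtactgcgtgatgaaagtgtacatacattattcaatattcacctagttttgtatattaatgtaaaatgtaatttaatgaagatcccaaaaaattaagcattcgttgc

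Of the 10 windows, 2 held the PAC letters, those of *SKI2* and *DOM34*. The *DOM34* window had 2 overlapping copies, which start 224 and 219 bases before the start codon, in the stretch of 313 bases between *DOM34* and its divergent neighbour *RLP7*. Among 6007 such windows of the genome 939, or 15.6%, held PAC. The stress response element, AGGGG or CCCCT, was counted separately from PAC. It was in none of the 10 windows and in 939 of the 6007 windows as well. The *SKI2* and *SKI3* windows shared neither motif, and other motifs were not counted.

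Levels between genes were compared per length, in RPKM (CPM per kilobase of coding sequence). In *def1Δ* total RNA *SKI8* ranked first at 26.5 RPKM, then *NAM7* and *HEL2*, which overlapped between libraries, with *HEL2* at 20.1, and *UPF3* was lowest at 3.45. In WT total RNA *SKI8* at 41.2 and *NAM7* at 40.0 RPKM also overlapped and stood above the rest. *UPF3* again had the lowest mean, 4.63. It overlapped the gene next above it in both strains, *DOM34* in *def1Δ* and *SKI7* in WT. *SKI2* held rank 4 in *def1Δ*, at 16.7 RPKM, and rank 5 in WT, at 7.76 RPKM, where it overlapped *HBS1* above it. Against all genes, *SKI2* lay at percentile 58.8 in *def1Δ* and 38.3 in WT, and *NAM7* at 65.5 in *def1Δ* and 77.0 in WT. The members are thus mRNAs of middle abundance, spread from percentile 13.3 to 71.2 in *def1Δ* and from 23.0 to 77.6 in WT.

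In total RNA, a pair of Ski transcripts was about 2-fold higher in *def1Δ* than in WT, and *NAM7* and *SKI8* were lower. Of the 10 genes, 2 were higher, 2 were lower and 6 did not pass edgeR's quasi-likelihood test at an adjusted p under 0.05. Of all 6055 genes tested, 25.3% were higher and 23.7% lower by the same rule, so the members' share was close to that of the genome. By the cutoffs of the study, an adjusted p under 0.01 with more than a 2-fold change, 1 member (*SKI2*) passed, against 18.4% of all genes. The members' median was −0.03 on the log2 scale and that of all genes 0.04.

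Among the nonsense decay genes, *NAM7* had 59.2 and 63.1 CPM in *def1Δ*, against 115 and 119 CPM in WT. The strains did not overlap, and the fold change was −0.93 ± 0.13 on the log2 scale (SE, adjusted p = 0.0006, edgeR). *NMD2* had 20.2 and 20.8 CPM in *def1Δ*, against 22.8 and 25.9 CPM in WT, a difference that did not pass (log2 −0.25 ± 0.13, adjusted p = 0.14). *UPF3*, with 4.46 and 3.57 CPM in *def1Δ* and 5.37 and 5.41 CPM in WT, did not pass either (adjusted p = 0.16). Of the 3 partners in this pathway, only the transcript of the helicase passed in total RNA, and the differences between the members' fold changes were not tested.

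Among the Ski genes, *SKI2* had 61.1 and 68.05 CPM in *def1Δ*, against 27.2 and 32.8 CPM in WT. *SKI3* had 48.1 and 50.5 CPM in *def1Δ*, against 25.55 and 25.66 CPM in WT. Both were higher without overlap, *SKI2* by log2 1.10 ± 0.14 and *SKI3* by 0.95 ± 0.12 (adjusted p = 0.00054 and 0.00053, edgeR), or 2.15-fold and 1.93-fold. *SKI8*, the third subunit, had 34.55 and 28.7 CPM in *def1Δ*, against 48.5 and 49.9 CPM in WT, and was lower by log2 −0.64 ± 0.14 (adjusted p = 0.0057). The 3 subunits of the complex thus did not move together, and without *def1Δ* replicate 2 the *SKI8* difference was −0.51 with an adjusted p of 0.086. *SKI7*, which bridges to the exosome, had 15.25 and 14.0 CPM in *def1Δ* and 9.73 and 11.4 CPM in WT, without overlap and just outside the threshold (log2 0.46 ± 0.17, adjusted p = 0.051). Its adjusted p ran from 0.028 to 0.22 when a library was left out, and it passed without WT replicate 2.

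None of the rescue genes passed in total RNA. *DOM34* had 5.50 and 4.18 CPM in *def1Δ*, against 7.50 and 5.89 CPM in WT (adjusted p = 0.14). *HBS1* had 18.4 and 16.3 CPM in *def1Δ*, against 14.2 and 14.6 CPM in WT (adjusted p = 0.18), and the strains did not overlap for either gene. *HEL2*, whose strains overlapped, had 36.2 and 40.8 CPM in *def1Δ* and 29.3 and 38.4 CPM in WT (adjusted p = 0.36). Without WT replicate 2, *HEL2* was higher by log2 0.40 with an adjusted p of 0.034.

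**Figure D1:**
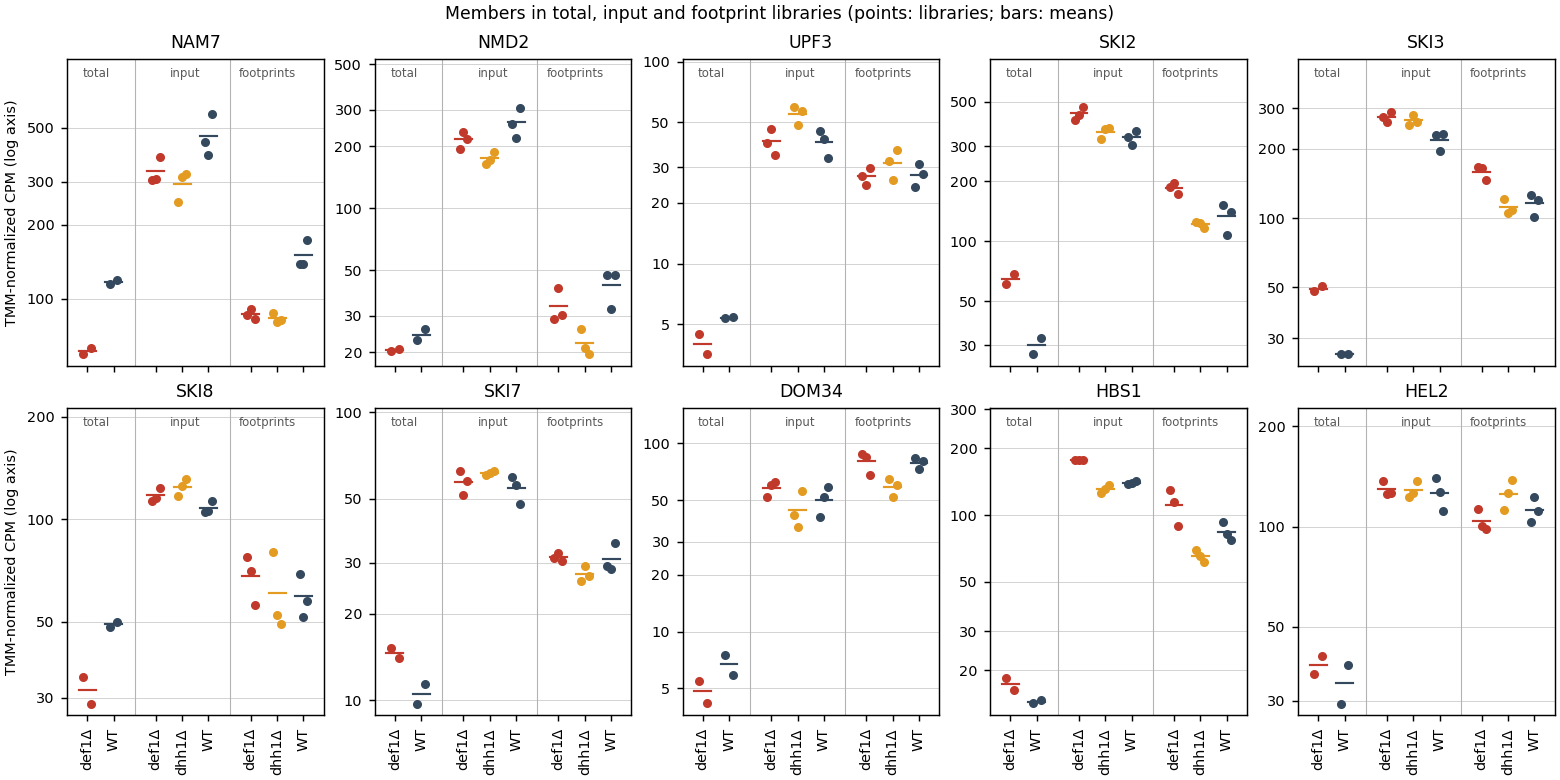
TMM-normalized CPM of each member on a log axis, in *def1Δ* and WT total RNA, in *def1Δ*, *dhh1Δ* and WT input RNA, and in footprints of the same strains (points are libraries or barcoded columns, bars are means). *SKI2* and *SKI3* in total RNA sit at 48.1 to 68.05 CPM in *def1Δ*, above 25.55 to 32.8 CPM in WT, and *NAM7* is lower in *def1Δ* than in WT in all 3 kinds of library.

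In labeled RNA, more members were higher than lower in *def1Δ* relative to WT at each of the 4 times tested. At 6 min, 6 of the 10 were higher and 1 lower in *def1Δ*, where 29.1% of the 6499 genes tested were higher, 28.8% lower and 20.5% past the cutoffs of the study, which 3 members passed. At 9 min, 5 were higher and 1 lower, with 31.6%, 29.8% and 24.8% of all genes, and 4 members past the stricter cutoffs. At 24 min, 9 were higher and none lower (33.8%, 28.9% and 27.3% of all genes, 4 members past the cutoffs of the study). At 90 min, 6 were higher and 2 lower (32.9%, 29.5% and 28.9% of all genes, 3 members past those cutoffs). At 24 min, 9 of 10 higher against 33.8% of all genes was the highest share of the members in any comparison made here. The WT mean at 24 min was below those at 12 and 90 min for *NAM7*, *NMD2*, *SKI2*, *SKI3*, *SKI8*, *SKI7*, *DOM34* and *HEL2*. It was not below both for *HBS1* and *UPF3*. For *NMD2* it was 29.9 CPM, against 49.0 CPM at 12 min (a single library) and 48.0 CPM at 90 min. How far the low WT values carry the share at 24 min was not tested. These values are relative to the other transcripts of a library, and the 4 times share a fit and its estimate of the spread.

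*SKI2* and *SKI3* had the largest fold changes of the members at all 4 times. At 6 min *SKI2* had 263 and 279 CPM in *def1Δ*, against 94.2 and 83.9 CPM in WT (log2 1.61 ± 0.12, adjusted p = 3.4e-08, edgeR). At 24 min it had 224 and 197 CPM in *def1Δ*, against 47.8 and 44.8 CPM in WT, a 4.55-fold difference (log2 2.19 ± 0.13, adjusted p = 4.3e-09). At 90 min it had 162 and 158 CPM in *def1Δ*, against 66.4 and 60.5 CPM in WT (log2 1.33 ± 0.13). The strains were apart at each time, and the level was lower at 90 than at 6 min in both. The WT level at 24 min was also below the 72.9 CPM at 12 min and the WT values at 90 min. *SKI3* had 186 and 192 CPM in *def1Δ* at 6 min, against 85.7 and 73.0 CPM in WT, and log2 fold changes of 1.25, 1.34, 1.89 and 1.32 at 6, 9, 24 and 90 min. *SKI7* passed at all 4 times as well, with log2 fold changes of 0.74, 0.96, 0.82 and 0.59.

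*SKI8* differed from the other Ski transcripts by its direction, which changed with labeling time. At 6 min it had 88.5 and 91.6 CPM in *def1Δ*, against 165 and 154 CPM in WT, and was lower (log2 −0.82 ± 0.14, adjusted p = 0.00011, edgeR). At 24 min it had 108 and 119 CPM in *def1Δ*, against 75.4 and 65.05 CPM in WT, and was higher (log2 0.69 ± 0.14, adjusted p = 0.00045). At 90 min it had 113 and 122 CPM in *def1Δ*, against 155 CPM in both WT libraries (log2 −0.40 ± 0.14, adjusted p = 0.02). The WT libraries at 24 min were the low ones in this series, while the *def1Δ* values stayed between 88.5 and 122 CPM. With the spike-in scaling *SKI8* did not pass at 6 min (log2 −0.51, adjusted p = 0.19) or at 9 min (−0.33, adjusted p = 0.42), so its change of direction holds for TMM-scaled values. At 90 min the *SKI8* call was lost without WT replicate 1, without WT replicate 2 and without *def1Δ* replicate 1, with adjusted p values of 0.07, 0.065 and 0.11.

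Of the nonsense decay genes, *NMD2* was higher in *def1Δ* early and *NAM7* changed direction late. At 6 min *NMD2* had 172 and 196 CPM in *def1Δ*, against 87.4 and 78.4 CPM in WT, a 2.22-fold difference (log2 1.15 ± 0.17, adjusted p = 2.7e-05, edgeR). It was also higher at 9 min (log2 1.26) and 24 min (log2 1.30), and at 90 min it had 71.4 and 56.1 CPM in *def1Δ*, against 52.7 and 43.4 CPM in WT, which did not pass (log2 0.40, adjusted p = 0.06). That call depended on the setting, since *NMD2* at 90 min passed with the spike-in scaling (log2 1.60, adjusted p = 1.3e-06), without *def1Δ* replicate 2 (0.57, adjusted p = 0.029), with a replicate block (adjusted p = 0.019), with the libraries of this time alone (0.021) and without a count filter (0.038). *NAM7*, with 385 and 369 CPM in *def1Δ* and 346 and 302 CPM in WT, did not pass at 6 min (adjusted p = 0.25). It was higher at 24 min, with 189 and 167 CPM in *def1Δ*, against 106 and 96.3 CPM in WT (log2 0.82 ± 0.16, adjusted p = 0.00029). The WT libraries at 24 min were low for *NAM7* too, since the WT library at 12 min had 197 CPM. At 90 min *NAM7* was lower, with 122 and 111 CPM in *def1Δ*, against 191 and 198 CPM in WT (log2 −0.74 ± 0.16, adjusted p = 0.00068). The 90 min value has the direction of total RNA, where *NAM7* was lower too. At 9 min *NAM7* did not pass (log2 0.34, adjusted p = 0.069), but without WT replicate 1 it was 0.68 with an adjusted p of 0.00019, and with a replicate block 0.36 with an adjusted p of 0.027. *UPF3* passed at no time, with log2 fold changes from −0.34 at 24 min to 0.25 at 6 min.

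The rescue pair *DOM34* and *HBS1* separated the strains late, and *HEL2* at every time. *DOM34* had 33.8 and 36.1 CPM in *def1Δ* at 6 min, against 38.9 and 34.2 CPM in WT, and did not pass (adjusted p = 0.75). At 90 min it had 49.25 and 53.9 CPM in *def1Δ*, against 31.9 and 25.6 CPM in WT (log2 0.83 ± 0.15, adjusted p = 0.00015, edgeR). The difference was already present at 24 min (log2 0.60, adjusted p = 0.0021). *HBS1*, the partner of *DOM34*, had 48.5 and 56.5 CPM in *def1Δ* at 6 min and 44.5 and 40.5 CPM in WT (log2 0.31, adjusted p = 0.032). At 90 min it had 89.5 and 85.1 CPM in *def1Δ*, against 38.0 and 38.7 CPM in WT, a 2.28-fold difference (log2 1.19 ± 0.12, adjusted p = 3.3e-07). The 6 min call of *HBS1* was lost without WT replicate 1, WT replicate 2 or *def1Δ* replicate 2 (adjusted p = 0.12, 0.2 and 0.59) and by DESeq2 (0.088). *HEL2* was higher at 6, 9, 24 and 90 min, by log2 0.96, 1.04, 1.46 and 0.91.

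**Figure D2:**
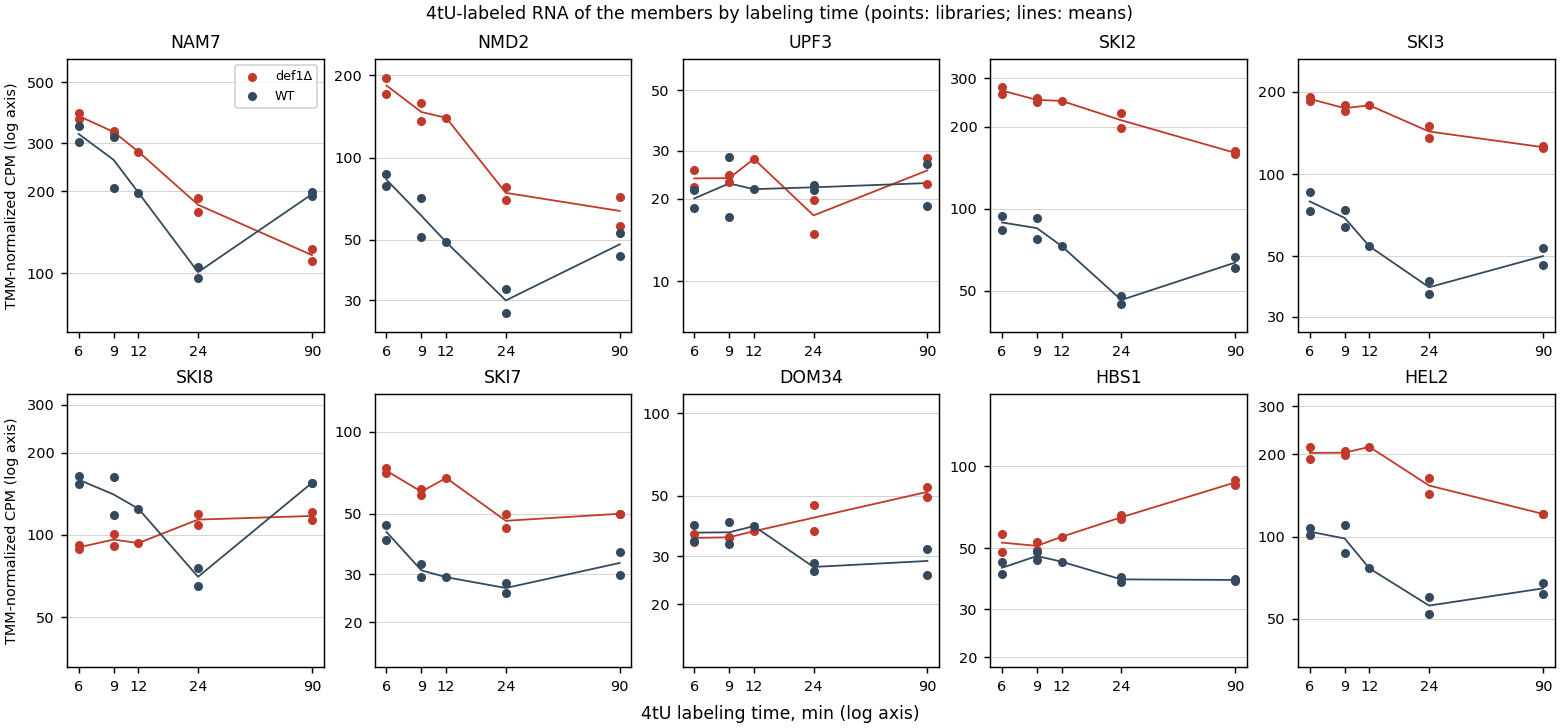
4tU-labeled RNA of each member by labeling time (both axes are log axes; TMM-normalized CPM; points are libraries, lines are means). *SKI2*, *SKI3* and *HEL2* in *def1Δ* lie above WT at every time, *HBS1* rises in *def1Δ* to 89.5 and 85.1 CPM at 90 min with WT at 38.0 and 38.7 CPM, and *NAM7* and *SKI8* cross.

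The change between 6 and 90 min was then compared between the strains in the same fit. For 2 of the 10 members the change was higher in *def1Δ* than in WT, for 2 it was lower and 6 did not pass. Of all genes, 16.7% were higher and 13.2% lower, and 9.12% passed the cutoffs of the study, which no member did. The change was higher in *def1Δ* for *DOM34* (log2 0.89 ± 0.21, adjusted p = 0.0049, edgeR) and *HBS1* (log2 0.88 ± 0.17, adjusted p = 0.0013). It was lower for *NAM7* (log2 −0.96 ± 0.22, adjusted p = 0.0045) and *NMD2* (log2 −0.75 ± 0.25, adjusted p = 0.03), which fell in both strains. With a library left out, the adjusted p ran from 0.0052 to 0.031 for *DOM34*, from 0.0008 to 0.0069 for *HBS1* and from 0.0097 to 0.026 for *NAM7*. For *NMD2* it ran from 0.022 to 0.16, and the call was lost without either WT 6 min library, either *def1Δ* 6 min library, WT 90 min replicate 1 or *def1Δ* 90 min replicate 2. With the spike-in scaling *NAM7* was at −0.08 (adjusted p = 0.91) and *NMD2* turned to 0.15 (adjusted p = 0.83), while *DOM34* and *HBS1* were at 1.78 and 1.75 (adjusted p = 0.00033 and 0.00066). That scaling moved the median of all genes in this comparison from 0.004 to 0.85. Size factors shift all genes of a comparison by nearly the same amount. The place of these 4 genes relative to the median therefore could not change with the scaling.

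The labeled and total RNA libraries also carry a *Schizosaccharomyces pombe* spike-in, by which the authors scaled them. With size factors recovered from the study's spike-in normalized reads, the median log2 fold change of all genes moved to −0.29 in total RNA and to 0.27, 0.19, 1.04 and 1.18 at 6, 9, 24 and 90 min of labeling. Several signs changed with it. At 90 min *NAM7* was at 0.44 ± 0.32 (adjusted p = 0.22) and *SKI8* at 0.78 ± 0.31 (adjusted p = 0.02), both opposite in sign to the TMM value, and *UPF3* passed at 1.34 (adjusted p = 3.7e-05). At 24 min *UPF3* turned to 0.68 (adjusted p = 0.043). *SKI2* was at 1.91, 1.78, 3.19 and 2.52 and *SKI3* at 1.55, 1.55, 2.89 and 2.51 at the 4 times, all passing. In total RNA no member passed with the spike-in scaling by edgeR, adjusted or unadjusted, and *SKI2* was at 0.83 ± 1.01 and *NAM7* at −1.27 ± 1.03. Of all 6055 genes tested, 15 passed with this scaling and 241 had an unadjusted p under 0.05, so few genes passed at all. The spike-in factors of the 2 WT total RNA libraries differed 3.76 times, at 0.628 and 2.36. By DESeq2 with its own factors, 4 members passed in total RNA.

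**Figure D3:**
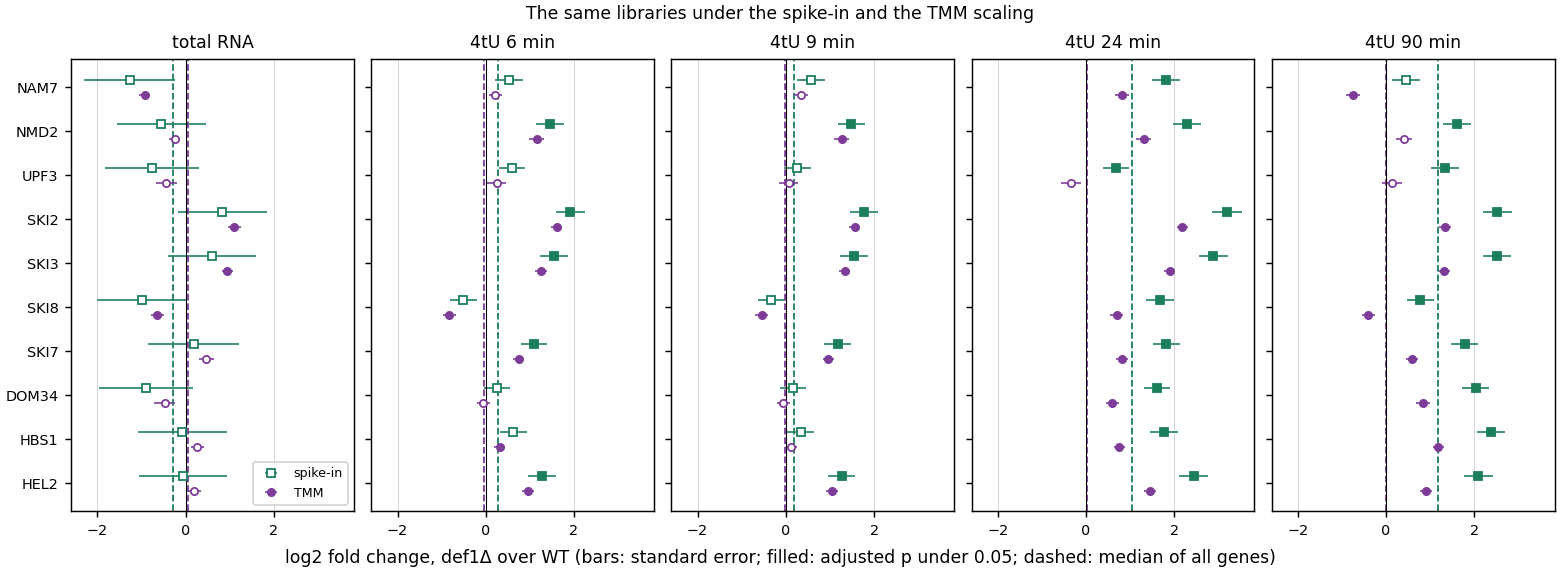
Log2 fold changes of *def1Δ* over WT in total RNA and labeled RNA under the spike-in scaling (squares) and TMM (circles), with standard errors, filled where the adjusted p is under 0.05. Dashed lines are medians of all genes, which at 90 min stand at 1.18 for the spike-in scaling and 0 for TMM, and *NAM7* and *SKI8* lie on opposite sides of 0 there.

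Decay rates were fitted to the spike-in scaled counts as a rise to a plateau, with the growth rate of the strain subtracted. A rate could be fitted for 9 of the 10 members in *def1Δ* (*NMD2* had none) and for 3 in WT, while 87.0% and 61.7% of all 6499 genes had a rate in *def1Δ* and WT. Spike-in scaled *NAM7* changed between 6 and 90 min by log2 −0.80 and −0.94 in the *def1Δ* replicates and by −1.24 and −0.23 in the WT replicates. *HBS1* gained log2 1.74 and 1.39 in *def1Δ*, against −0.61 and 0.31 in WT. For the 3 members with rates in both strains, the decay rates were 0.177 per min in *def1Δ* and 0.365 in WT for *UPF3*, 0.0716 and 0.567 for *HBS1*, and 0.0887 and 0.853 for *DOM34*. The medians of all genes with a rate were 0.131 per min in *def1Δ* and 0.256 in WT. The WT rates of *HBS1* and *DOM34* are half-lives of 1.22 and 0.81 min, shorter than the first labeling time of 6 min. Spike-in scaled *DOM34* did not rise in WT, with 271 and 159 at 6 min and 171 and 154 at 90 min. The half-lives of *UPF3*, 1.90 min in WT and 3.93 min in *def1Δ*, are also shorter than 6 min. Spike-in scaled *UPF3* in WT was at 129.1 and 100.6 at 6 min and at 143.5 and 113.7 at 90 min. The size of the difference between the strains is thus not resolved for these 3 genes. Fits of each replicate alone gave 0.0577 and 0.0835 per min for *HBS1* in *def1Δ*, against 0.782 and 0.449 in WT, and for *UPF3* 0.193 and 0.162 in *def1Δ*, against 0.214 and 0.490 in WT. The WT rates moved when a library was left out. That of *DOM34* ran from 0.567 to 1.48 and could not be fitted without WT 6 min replicate 2, without WT 9 min replicate 1 or with replicate 1 alone. That of *UPF3* in WT ran from 0.264 to 0.584, and that of *HBS1* from 0.476 to 0.676, with none without WT 6 min replicate 2. In the fits of each replicate the strains did not overlap for *HBS1* or *UPF3*, and with 2 replicates a strain no test was made. With TMM scaling no member had a rate in both strains, without WT 6 min replicate 1 the number was 8, and without WT 6 min replicate 2 it was 1. The share of all genes with a WT rate moved as well, to 47.0%, 79.3% and 48.2% in the same order.

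Input RNA of the profiling experiment gave smaller differences in the same direction for *NAM7*, *SKI2* and *SKI3*. Of the 10 members, 3 were higher, 1 was lower and 6 did not pass in *def1Δ* over WT, where 21.8% of the 6434 genes tested were higher and 18.6% lower. The cutoffs of the study were passed by no member and by 9.87% of all genes. *NAM7* had 306, 307 and 380.4 CPM in *def1Δ*, against 435, 385 and 567 CPM in WT, and was lower by log2 −0.48 ± 0.17 (adjusted p = 0.041, edgeR). *SKI2* had 406, 432 and 474 CPM in *def1Δ*, against 334, 305 and 358 CPM in WT (log2 0.40 ± 0.11, adjusted p = 0.016). *SKI3* had 276, 263 and 290.5 CPM in *def1Δ*, against 229.9, 195 and 233 CPM in WT (log2 0.33 ± 0.10, adjusted p = 0.027). None of these 3 genes overlapped between the strains. *HBS1* had 176, 178 and 177 CPM in *def1Δ*, against 138, 139.9 and 143 CPM in WT, with little spread in either strain (log2 0.34 ± 0.09, adjusted p = 0.01). The calls were near the threshold. With the WT and *def1Δ* libraries fitted alone no member passed after adjustment by edgeR, 4 were under 0.05 unadjusted, and the adjusted p values were 0.052, 0.059, 0.088 and 0.05 for *NAM7*, *SKI2*, *SKI3* and *HBS1*. By DESeq2 4 passed, and with a library left out 2 or 3 passed. The *NAM7* call was lost without WT replicate 1 or 3 or *def1Δ* replicate 1 or 2, that of *SKI2* without WT replicate 2 or *def1Δ* replicate 3, and that of *SKI3* without WT replicate 2 or *def1Δ* replicate 1 or 3. That of *HBS1* held in each (adjusted p from 0.022 to 0.041).

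Of the other members in input RNA, *SKI8* had 114, 116 and 124 CPM in *def1Δ*, against 105, 106 and 113 CPM in WT. It did not overlap by a narrow margin and did not pass (log2 0.12 ± 0.09, adjusted p = 0.31). *NMD2* (log2 −0.28, adjusted p = 0.12), *DOM34* (0.22, 0.36), *SKI7* (0.07, 0.64), *HEL2* (0.04, 0.8) and *UPF3* (0.00, 0.99) overlapped between the strains. *NMD2* passed without WT replicate 2, at log2 −0.42 with an adjusted p of 0.032.

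The sizes of the *def1Δ* effect in total and input RNA were then compared in a fit over both kinds of library, a comparison added after the values had been seen. The effect was larger in total RNA for *SKI2* (log2 0.73 ± 0.21, adjusted p = 0.035, edgeR) and *SKI3* (0.64 ± 0.18, adjusted p = 0.04), and lower in total RNA for *SKI8* (−0.74 ± 0.18, adjusted p = 0.021). Of all 6460 genes tested 6.87% passed in the higher direction and 6.89% in the lower one, and 3.47% passed the cutoffs of the study, which no member did. Between 0 and 3 members passed with a library left out, none without WT total RNA replicate 1 and none without *def1Δ* total RNA replicate 2. The experiments also differ in cycloheximide, lysis, library depth and counting, which cannot be told apart from the difference.

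In *dhh1Δ* cells, the 3 transcripts that passed against WT were those of nonsense decay. Of the 10 members 1 was higher, 2 were lower and 7 did not pass, where 20.4% of all genes were higher and 16.7% lower. The number of members passing was thus near the share of the genome. The cutoffs of the study were passed by 9.03% of all genes and by no member. *NAM7* had 248, 313 and 322 CPM in *dhh1Δ*, against 435, 385 and 567 CPM in WT (log2 −0.65 ± 0.17, adjusted p = 0.012, edgeR). *NMD2* had 163, 171 and 188 CPM in *dhh1Δ*, against 257, 220.2 and 308 CPM in WT (log2 −0.58 ± 0.14, adjusted p = 0.0067). *UPF3* was higher, with 59.7, 48.7 and 57.3 CPM in *dhh1Δ* and 45.3, 41.6 and 33.5 CPM in WT (log2 0.46 ± 0.15, adjusted p = 0.037). *NAM7* and *NMD2* thus moved opposite to *UPF3*, their partner in the pathway, and none of the 3 overlapped. The *UPF3* call was lost without WT replicate 2, WT replicate 3, *dhh1Δ* replicate 1 or *dhh1Δ* replicate 3 (adjusted p = 0.08, 0.12, 0.12 and 0.1). *SKI3*, with 253, 281 and 263 CPM in *dhh1Δ* and 229.9, 195 and 233 CPM in WT, did not pass (log2 0.28, adjusted p = 0.059), and *SKI2* overlapped WT (log2 0.09, adjusted p = 0.55).

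The *def1Δ* and *dhh1Δ* comparisons share the WT libraries, so the mutants were compared directly. Of the 10 members 1 was higher and 1 lower in *def1Δ* over *dhh1Δ*, where 12.6% and 13.1% of all genes were, and 4.52% of genes and no member passed the cutoffs of the study. *HBS1* had 176, 178 and 177 CPM in *def1Δ*, against 125, 131 and 137 CPM in *dhh1Δ* (log2 0.43 ± 0.09, adjusted p = 0.0045, edgeR). *UPF3* had 39.5, 46.6 and 34.65 CPM in *def1Δ*, against 59.7, 48.7 and 57.3 CPM in *dhh1Δ* (log2 −0.46 ± 0.15, adjusted p = 0.049). The *HBS1* call held with each library left out (adjusted p from 0.015 to 0.034), and that of *UPF3* did not (0.043 to 0.13, lost without *def1Δ* replicate 1 or 3 or any *dhh1Δ* replicate). *NAM7* had an adjusted p of 0.48 for the difference between the mutants, *NMD2* 0.12 and *SKI2* 0.066. *DOM34* did not pass (adjusted p = 0.13), but did without *dhh1Δ* replicate 3 (log2 0.58, adjusted p = 0.047) and with the replicate number as a block (log2 0.41, adjusted p = 0.045).

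On ribosomes, *SKI2* and *SKI3* were again higher and *NAM7* lower in *def1Δ* than in WT. Among 10 members 2 were higher, 1 was lower and 7 did not pass, where 19.3% of the 5601 genes tested were higher, 20.5% lower and 10.6% past the cutoffs of the study, which no member passed. *NAM7* footprints were at 86.0, 90.8 and 82.2 CPM in *def1Δ*, against 139, 139 and 174 CPM in WT (log2 −0.80 ± 0.14, adjusted p = 0.0014, edgeR). *SKI2* footprints were at 187, 196 and 173 CPM in *def1Δ*, against 152, 107 and 139 CPM in WT (log2 0.48 ± 0.15, adjusted p = 0.029). *SKI3* footprints were at 167, 165 and 147 CPM in *def1Δ*, against 126, 101 and 120.3 CPM in WT (log2 0.46 ± 0.13, adjusted p = 0.021). The columns of these 3 genes did not overlap between the strains. With a column left out, the *NAM7* adjusted p ran from 0.0012 to 0.0095. The *SKI2* call was lost without WT replicate 2 or 3 or *def1Δ* replicate 1 or 2 (0.089, 0.058, 0.079 and 0.1), and that of *SKI3* without WT replicate 2 or *def1Δ* replicate 1 or 2 (0.069, 0.072 and 0.077). *HBS1* footprints, at 130.2, 115 and 89.1 CPM in *def1Δ* and 93.2, 81.8 and 76.9 CPM in WT, overlapped and did not pass (adjusted p = 0.062). They passed without *def1Δ* replicate 3 (log2 0.54, adjusted p = 0.013), by DESeq2 (adjusted p = 0.036) and with a minimum of 100 counts (adjusted p = 0.048). *NMD2* footprints were at 29.1, 41.2 and 30.2 CPM in *def1Δ* and 47.6, 32.6 and 47.5 CPM in WT, and passed only without WT replicate 2 (log2 −0.51, adjusted p = 0.049). Whether the barcoded columns are separate cultures is not known, so their p values may measure technical spread. In the *dhh1Δ* columns, which the labels give as a single sample and which were not tested, *NAM7* was at 87.4, 80.45 and 82.0 CPM and *NMD2* at 26.0, 21.05 and 19.6 CPM.

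Translational efficiency, footprints relative to input RNA, passed for none of the 10 members in *def1Δ* over WT. By edgeR and by DESeq2 no member had an unadjusted p under 0.05 (lowest 0.2 and 0.25). Of all 6423 genes 0.514% were higher, 0.0934% lower and 0.171% past the cutoffs of the study. The log2 differences ran from −0.30 for *NAM7* to 0.15 for *SKI3*, with standard errors from 0.18 to 0.25. In data simulated from these libraries the test found 71 of 200 genes changed by log2 1, and smaller changes were not simulated. The level of occupancy itself differed widely between members. The ratio of footprint to input CPM of *NMD2* was 0.155 in *def1Δ*, 0.127 in *dhh1Δ* and 0.163 in WT, at percentiles 3.9, 2.3 and 6.1 of the genes with at least 100 footprint counts. *DOM34* lay near the other end, at 1.38 in *def1Δ*, 1.33 in *dhh1Δ* and 1.57 in WT (percentiles 88.1, 85.3 and 89.0). The medians of all genes were 0.514, 0.519 and 0.549. *NAM7* had low ratios as well, at 0.261, 0.283 and 0.325, and the other members lay between percentiles 29.2 and 77.3.

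**Figure D4:**
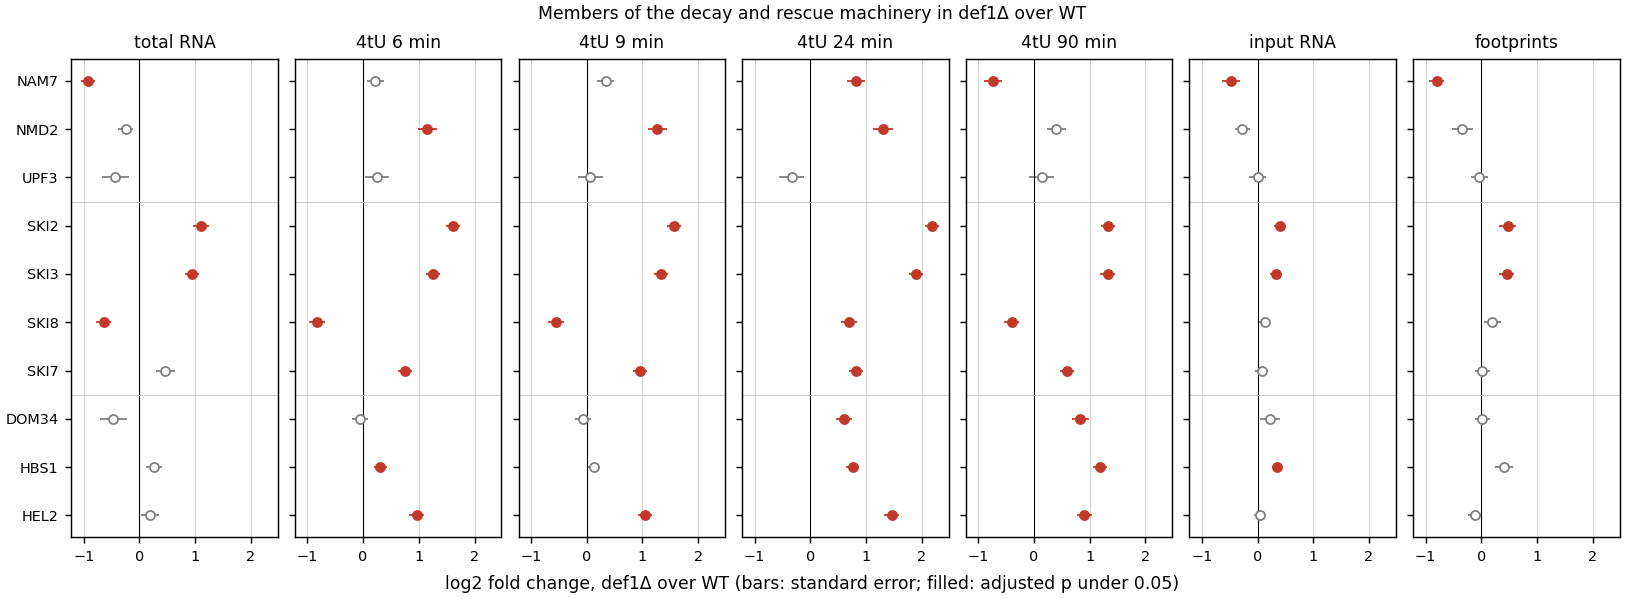
Log2 fold change of *def1Δ* over WT for each member in total RNA, in labeled RNA at 4 times, in input RNA and in footprints (bars are standard errors, filled points have an adjusted p under 0.05, TMM scaling). *SKI2* and *SKI3* lie right of 0 in all 7 panels, from 0.33 to 2.19, and *NAM7* lies left of 0 in 4 of them.

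Across these 7 comparisons of *def1Δ* with WT, *SKI2* and *SKI3* were higher in all 7. The 4 labeling times share a fit, and the footprints and input RNA come from the same experiment, so the 7 are not independent. *NAM7* was lower in 4 and higher in 1, *SKI8* lower in 4 and higher in 1. *HBS1*, *HEL2* and *SKI7* were higher in 4 and *NMD2* in 3, all within labeled RNA but for *HBS1* in input RNA. *DOM34* was higher in 2, and *UPF3* passed in none.

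Over the 9 input libraries, *NAM7* and *NMD2* varied together (Pearson's r of log2 CPM 0.90), as did *SKI2* with *SKI3* (0.78) and with *HBS1* (0.83), while *NMD2* and *SKI7* ran opposite (−0.79). The libraries share 3 strains and a scaling, and these values are descriptions. Among 5372 genes with a mean of at least 100 counts, the patterns most like *NAM7* were those of *TPA1* (r = 0.997) and *ALR1* (0.988). Those most like *SKI2* were *NUP133* (0.991) and *HIS7* (0.989), and those most like *DOM34* were *TCD2* (0.943) and *DUS3* (0.931).

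Genes that work beside the members were counted from lists written from textbook knowledge. Over all genes, 25.3% were higher and 23.7% lower in *def1Δ* total RNA, and 21.8% higher and 18.6% lower in *def1Δ* input RNA. Of 5 accessory nonsense decay and termination genes, 1 was higher and 4 were lower in *def1Δ* total RNA (median log2 −0.56, all genes 0.04), and in input RNA 1 was higher and 1 lower (median −0.13). The release factor gene *SUP35* was the higher one in both, by log2 0.99 ± 0.15 (adjusted p = 0.00096, edgeR) in total RNA and 0.85 ± 0.13 in input RNA. *EBS1*, a factor of nonsense decay, was lower in both, by −0.56 ± 0.14 (adjusted p = 0.012) and −0.71 ± 0.13. Of 11 exosome and Ski-associated genes, 0 were higher and 5 lower in total RNA, and 2 were higher and 1 lower in input RNA, where *SKA1* (log2 0.64) and *SKI6* (0.36) were higher and *RRP43* (−0.93) was lower. The exosome list and the *SKI2* and *SKI3* pair thus had different directions in total RNA, which was not tested as a difference.

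Of 14 genes of ribosome-associated quality control, which acts downstream of Hel2, 5 were higher and 2 lower in *def1Δ* total RNA (median log2 0.48), and 6 were higher and 3 lower in input RNA (median 0.08). *NPL4* and *CDC48*, which extract ubiquitylated proteins, were higher in total RNA, by log2 1.14 ± 0.17 (adjusted p = 0.001, edgeR) and 0.65 ± 0.18 (adjusted p = 0.017), and in input RNA by 0.81 and 0.79. *SYH1*, which acts on stalled mRNA, was lower in both, by −0.53 and −1.30, and the endonuclease gene *CUE2* was lower in input RNA (−0.94). Of 14 mRNAs known as targets of nonsense decay, 2 were higher and 3 lower in *def1Δ* total RNA (median log2 −0.16), shares below those of all genes in both directions. In input RNA 1 was higher and 6 were lower in *def1Δ* over WT (median −0.21), and 0 were higher and 7 lower in *dhh1Δ* over WT (median −0.38), where 20.4% of all genes were higher and 16.7% lower. The targets *EST3* (log2 −0.91 in total RNA, adjusted p = 0.012) and *REV7* (−1.42 in input RNA, adjusted p = 0.00026) were lower, and *UBP7* was higher (0.57 in total RNA, adjusted p = 0.0088).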

How the data were processed

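Steady-state total RNA and RATE-Seq were processed by the authors, who aligned the reads to sacCer3 (STAR) and deposited estimated counts from RSEM 1.2.28, not normalized. For profiling they deposited whole counts per gene. HISAT2 and featureCounts are in the submitters' processing notes, and which tool made these tables is not given in the sources used here. Libraries were grouped by their labels. Footprint columns carry barcodes and were assigned to a strain only. The 12 min RATE-Seq libraries of replicate 1 were not analysed here. Replicates share numbers, and the study calls those of total RNA and RATE-Seq biological. For profiling, p values measure the spread between libraries, which may be technical.

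Estimated counts were rounded. Genes reaching 15 counts in all libraries of a fit together were tested with edgeR 4.0.16 (quasi-likelihood, TMM scaling, Benjamini-Hochberg adjustment over all genes, threshold 0.05) in R 4.3.3. All 18 RATE-Seq libraries shared a fit, as did all 9 input libraries, and translational efficiency was tested as an interaction (strain by library kind). Shown CPM are TMM-normalized. Decay rates were fitted over 400 rates from 0.0001 to 10 per min in Python 3.11.15, with growth rates of 0.0046 (*def1Δ*) and 0.0077 (WT) per min, and kept only where the best fit lay inside that range. Names and coordinates came from RefSeq R64, which matched 6047 of 7127 and 5930 of 6613 identifiers, and annotation and files are of the same release. In data simulated from these libraries, with 200 genes changed by log2 1, edgeR recovered 180 of 200 in total RNA (6055 genes), 178 at 6 min (6499 genes) and 178 in input RNA (6434 genes), with 14, 7 and 25 false calls.

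The members and gene lists were chosen with earlier results of these data known. All 10 members are named in each comparison. Of each further list, at most 2 rising and 2 falling genes are named, those that moved most in *def1Δ* input RNA among the genes that passed, and the most alike genes are the 2 with the highest r. Alternatives were DESeq2 1.42.0, other count filters, the cutoffs of the study, spike-in size factors, a replicate block, smaller fits and each library left out.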

Additional observations from a re-analysis of the deposited data

Results flagged for a closer look

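These results stand out because an effect differed between labeling times, between mutants or between experiments by a test of the difference itself (edgeR, adjusted over all genes). The change of labeled RNA between 6 and 90 min was higher in *def1Δ* than in WT for *DOM34* (log2 0.89, adjusted p = 0.0049) and *HBS1* (0.88, adjusted p = 0.0013). It was lower for *NAM7* (−0.96, adjusted p = 0.0045) and *NMD2* (−0.75, adjusted p = 0.03), which fell in both strains. The first pair kept direction and call under the spike-in scaling, and the second did not. That scaling moved the median of all genes in this comparison to 0.85 and shifts all genes by nearly the same amount. The place of either pair relative to the median therefore could not change with it. Between the mutants, *HBS1* was higher (log2 0.43, adjusted p = 0.0045) and *UPF3* lower (−0.46, adjusted p = 0.049) in *def1Δ* than in *dhh1Δ* input RNA, where mating type differs as well. Between experiments, the *def1Δ* effect was larger in total than in input RNA for *SKI2* (log2 0.73, adjusted p = 0.035) and *SKI3* (0.64, adjusted p = 0.04), and lower for *SKI8* (−0.74, adjusted p = 0.021). What sets these differences was not tested.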

How the results depend on the processing

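Of 53 calls on single members, 31 kept direction and side of the threshold in every alternative other than the cutoffs of the study. Those cutoffs were applied only to the counts of members passing. Of the 548 other alternatives run on all 53, 476 changed nothing, 69 lost the call and 3 turned the direction. All turns came with the spike-in size factors, which moved the median of all genes by up to 1.18: *NAM7* and *SKI8* at 90 min became 0.44 and 0.78, *NMD2* between 6 and 90 min 0.15, and the uncalled *UPF3* at 24 min 0.68. The same factors left 0 of 4 calls in total RNA (edgeR, 0 members unadjusted, against 4 by DESeq2), where 15 of all 6055 genes passed. By the cutoffs of the study 1 member passed in total RNA, 3 at 6 min, 4 at 24 min and 3 at 90 min, and 0 between 6 and 90 min, in the 3 input comparisons, in footprints and in total minus input RNA. With WT and *def1Δ* input libraries fitted alone 0 passed (4 unadjusted). With a library left out, the members called ran from 2 to 3 in *def1Δ* over WT input RNA, from 1 to 2 in *def1Δ* over *dhh1Δ*, from 1 to 4 in footprints and from 0 to 3 in total minus input RNA, and members with a decay rate in both strains from 1 to 8. Such rates were found for 0 members with TMM scaling and 7 with replicate 2 alone. Of all genes, 47.0% had a WT rate with TMM scaling, 71.5% with replicate 2 alone, and 48.2% to 79.3% with a library left out. The cause was not tested.

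Deviations of same-numbered libraries correlated at 0.06 in total RNA, at 0.11, 0.15, 0.25 and −0.05 in labeled RNA at 6, 9, 24 and 90 min, and from −0.71 to 0.61 in input RNA. With 2 pairs per time or mixed signs, the numbers were not taken as pairs. With the number as a replicate block, 4 members passed in *def1Δ* over *dhh1Δ* in place of 2, and no other count moved by over 1.5 times. The block added calls for *NAM7* at 9 min (adjusted p = 0.027) and *NMD2* at 90 min (0.019). Footprint columns are numbered by barcode while the labels number sequencing runs, so no block was fitted there. Depth limits *UPF3* and *DOM34* most in total RNA, with counts from 43 to 74.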
